A study of Rattus norvegicus with 4 samples.

Results

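The 10 genes described here encode ligands (Tgfb1, Tgfb2, Tgfb3 and Inhba), receptors and co-receptors (Tgfbr1, Tgfbr2, Tgfbr3 and Eng, the gene of endoglin) and inhibitory Smads (Smad6 and Smad7) of the transforming growth factor beta (TGF-beta) family. They were chosen by name, as the probes whose gene name, without an ending for predicted or mapped genes, equals one of these symbols. This gave 12 of the 41012 probes of the array and 10 of its 35658 gene names. Olfactory ensheathing cells, the glia of the olfactory nerve, were cultured from olfactory mucosa and from olfactory bulb of male Fischer rats. Both cultures followed a single published protocol, and the labels name no treatment, transgene or mutation. Each of 4 arrays held a pair of samples, mucosa RNA labelled with Cy5 and bulb RNA with Cy3, and the labels number the pairs as biological replicates 1 to 4. The age of the rats, their number and any pooling of animals are not given in the sources used here.

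TGF-beta ligands are secreted in a latent form, bound to their own propeptide and to matrix proteins, and must be released before they can act. An active ligand brings together type II and type I receptor kinases, which phosphorylate receptor Smads that enter the nucleus with Smad4 and switch genes on or off. Smad6 and Smad7 are induced by this family of signals and hold it back, so they form a negative feedback loop, while betaglycan (Tgfbr3) and endoglin present ligands to the kinases. In the nervous system the pathway is known for its part in glial differentiation, scar formation and the making of extracellular matrix.

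The probes of 3 members are shown because they mark the stretch of transcript that was measured. Tgfb1 is the ligand present as many copies on the array. Eng is the co-receptor that was higher in mucosa cells, and Smad6 an inhibitory Smad that was higher, as was Smad7. Each probe shown has 60 bases and is written 5′ to 3′ in lower case as the array file gives it. Each has at least 1 forward reading frame without a stop, which the Smad7 probe lacks.
Tgfb1 probe: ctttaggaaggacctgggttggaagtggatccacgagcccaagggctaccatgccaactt
Eng probe: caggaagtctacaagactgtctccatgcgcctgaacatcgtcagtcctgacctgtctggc
Smad6 probe: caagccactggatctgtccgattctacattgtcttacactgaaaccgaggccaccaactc
Per the file headers, the Tgfb1 probe lies on chromosome 1, from 80910123 to 80910182 of the rn4 build. The Smad6 probe has its ends on chromosome 8 at 68199857 and 68204156, a span of 4300 bases for a probe of 60, so its bases are not contiguous in the genome. The Eng probe has no coordinate in the file, and its gene is on chromosome 3 in the GRCr8 gene table. Exons, introns and UTRs were not annotated for any probe.

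The comparison asks which members of this pathway differ in expression between ensheathing cells of mucosa and of bulb. Tgfb3, Eng, Smad6 and Smad7 were higher in mucosa cells, by 5.48-fold, 4.15-fold, 3.77-fold and 3.79-fold. Tgfbr3 was 2.48-fold lower in mucosa cells. Tgfb1, Tgfb2, Inhba, Tgfbr1 and Tgfbr2 did not pass the test, which does not show that their levels were equal. Of the 10 members 5 thus passed, against 6.62% of all 31868 gene names tested, with 4 higher in mucosa cells (3.24% of all names) and 1 lower (3.39% of all names). The members were chosen with earlier results of these data known, so this share is a description and not a test. The test was limma's moderated test of the mean log2 ratio over the 4 arrays against 0, with Benjamini-Hochberg adjustment over all gene names tested and a threshold of 0.05. The 16 ratios of the 4 higher members, 1 per gene and array, lay between 1.36 and 2.57.

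Throughout, a log2 ratio is mucosa over bulb, so a positive value means higher in mucosa cells, and a signal is a normalised spot intensity without a unit that can be compared for the same probe only. All 12 member probes were well above background on 4 of 4 arrays in both channels, so no ratio of a member rests on a dim spot, and all 10 members were tested. The normalised signals of the 4 arrays did not overlap between mucosa and bulb for 6 of the 10 members, against 20.8% of all gene names. Of these 5 were higher in mucosa cells (11.5% of all names) and 1 was lower (9.38% of all names). Mucosa was Cy5 throughout, with no dye swap, so effects of dye and of tissue cannot be told apart. In bulk cultures, fewer cells of a type and less RNA per cell cannot be told apart either.

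**Figure D1:**
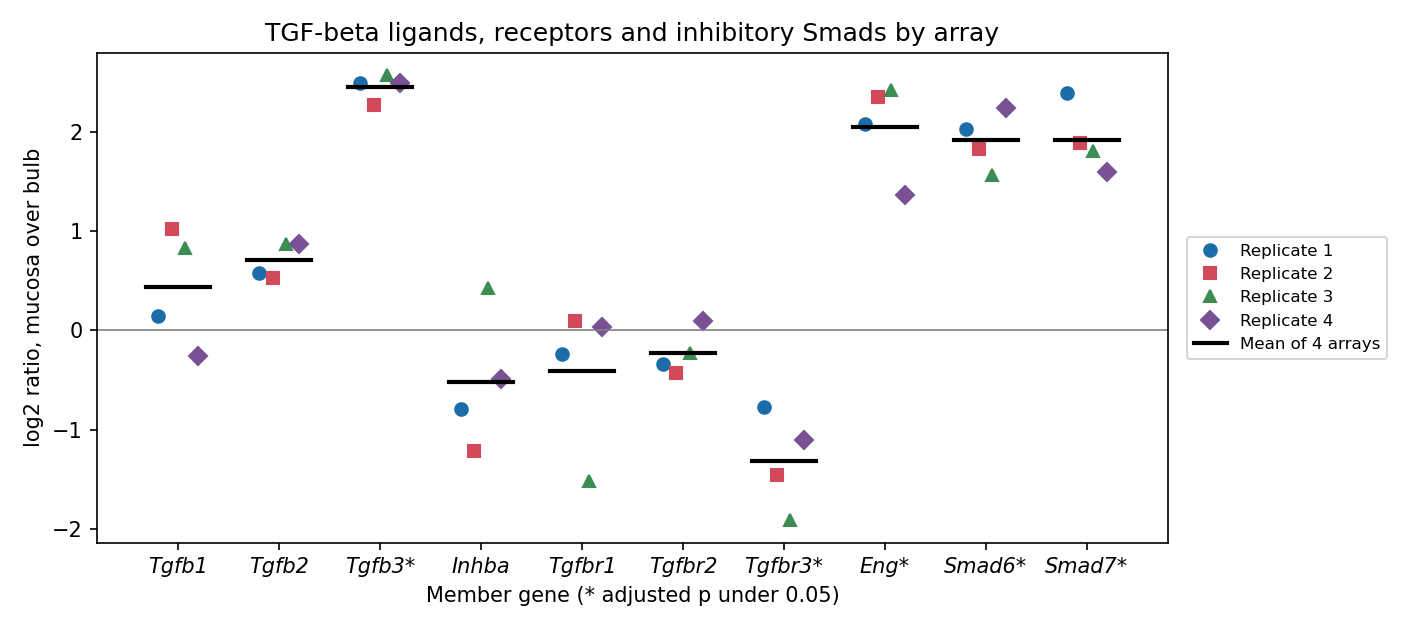
Log2 ratio of mucosa over bulb (vertical axis) for each member gene (horizontal axis). Each symbol is 1 of the 4 arrays and each bar their mean; the 4 arrays of Tgfb3 lie between 2.27 and 2.57, while those of Tgfb1, Inhba, Tgfbr1 and Tgfbr2 lie on both sides of 0.

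Among the ligands, Tgfb3, which encodes TGF-beta 3, stood apart from the others on every array. Its signal was 7837, 6566, 8385 and 7841 in mucosa cells of replicates 1 to 4, against 1392, 1362, 1411 and 1397 in bulb cells. The groups were far from overlapping, and the bulb samples were nearly equal to each other. The log2 ratio was 2.46 ± 0.13 (SD, n = 4; limma, adjusted p = 0.00287), with a 95% confidence interval from 1.99 to 2.93. Its SD was below 0.53, the median SD over all gene names, as it was for 7 of the 10 members. The lowest Tgfb3 ratio of any array, 2.27, exceeded the highest ratio of Tgfb1 or Tgfb2, 1.02; this difference between ligands was not tested. The Tgfb3 probe lies on chromosome 6, from 110173856 to 110173915 of the rn4 build, and starts at base 2138 of the transcript, per the file headers.

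Tgfb2, the ligand gene of TGF-beta 2, gave signals of 2936, 2497, 3650 and 4223 in mucosa cells, against 1970, 1731, 1992 and 2310 in bulb cells. Every mucosa sample was above every bulb sample, but the gap was narrow. The log2 ratio of 0.71 ± 0.19 (SD, n = 4) did not pass over all gene names (limma, adjusted p = 0.0948), and its 95% confidence interval ran from 0.23 to 1.20. With median centring in place of loess the ratio was 0.95 and passed (limma, adjusted p = 0.0487). A further probe, described in the file as TGF-beta 2 but named by an accession and so outside the selection, was well above background on 1 array in mucosa cells and on 0 in bulb cells, and gave no ratio that could be tested.

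Tgfb1, the founding ligand of the family, was measured by 10 spots of its probe on each array, of which 8, 10, 10 and 8 were free of outlier flags on replicates 1 to 4. Its signal was 1718, 1754, 2326 and 1474 in mucosa cells, against 1552, 863, 1307 and 1760 in bulb cells. The groups overlapped, and replicate 4 was lower in mucosa cells while the others were higher. Spots of an array agreed closely, with an SD between spots of 0.040 to 0.067 on the log2 scale, a technical spread that shares 1 labelling and hybridisation, and the 4 arrays ranged from -0.26 to 1.02. The mean log2 ratio was 0.44 ± 0.60 (SD, n = 4; limma, adjusted p = 0.39), with a 95% confidence interval from -0.24 to 1.11.

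Inhba encodes the subunit of activin A, a ligand that signals through its own receptors to the same Smads as TGF-beta. Its signal was 386, 297, 702 and 516 in mucosa cells, against 668, 688, 521 and 724 in bulb cells. Replicate 3 was higher in mucosa cells, and the other replicates were lower. The mean log2 ratio of -0.51 ± 0.70 (SD, n = 4) did not pass (limma, adjusted p = 0.359).

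**Figure D2:**
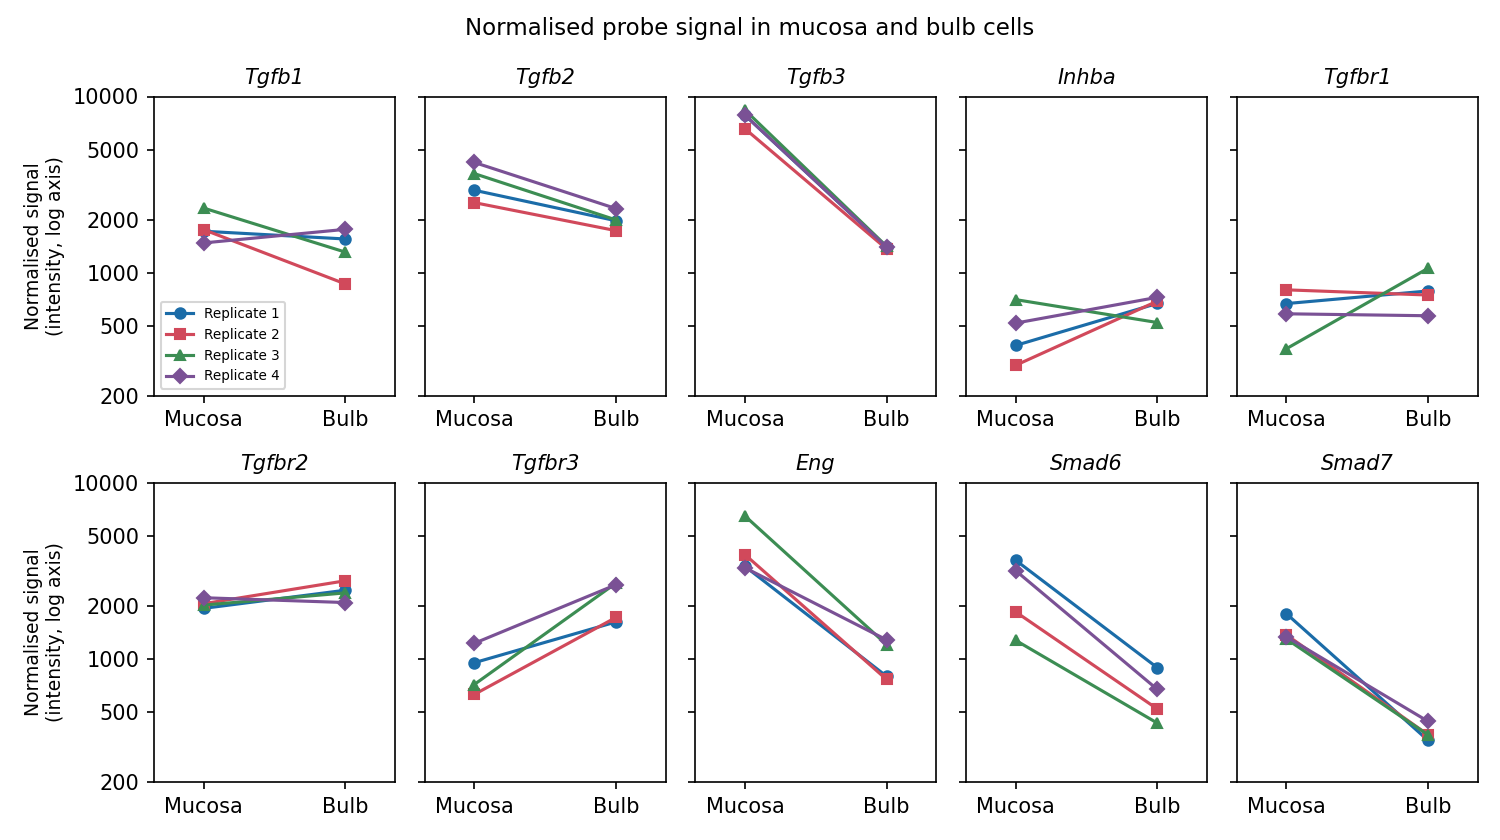
Normalised signal (intensity, log axis) of each member in mucosa and bulb cells; a line joins the samples of 1 array. The lines of Tgfb3, Eng, Smad6 and Smad7 all run down to bulb, those of Tgfbr3 all run up, and those of Tgfb1, Inhba, Tgfbr1 and Tgfbr2 run both ways.

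The kinase receptors did not pass in either direction. Tgfbr2, the type II receptor that binds TGF-beta, gave signals of 1935, 2056, 2019 and 2223 in mucosa cells, against 2452, 2775, 2369 and 2088 in bulb cells. The groups overlapped only through replicate 4. The log2 ratio was -0.23 ± 0.23 (SD, n = 4; limma, adjusted p = 0.535), with a 95% confidence interval from -0.72 to 0.27. With median centring the sign turned, to 0.00905 (limma, adjusted p = 0.985).

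Tgfbr1, the type I receptor kinase that phosphorylates Smad2 and Smad3, was the only member with more than 1 probe, and its 3 probes disagreed. The brightest, which starts at base 3100 of the transcript, gave 667, 798, 369 and 583 in mucosa cells, against 786, 746, 1056 and 569 in bulb cells. Its log2 ratio was -0.41 ± 0.76 (SD, n = 4; limma, adjusted p = 0.485), and replicate 3 was far below the others at -1.52. The probe from base 270 gave 0.44 ± 0.83 and the probe from base 3921 gave 0.51 ± 1.02 (SD, n = 4 each). The direction of Tgfbr1 therefore depended on the probe, and the mean over its probes was 0.18 (limma, adjusted p = 0.691). The probe from base 3100 had a lower ratio than that from base 3921 on 4 of 4 arrays, by -0.92 ± 0.74 on the log2 scale (SD, n = 4), a difference that was not tested. The probe from base 270 was above that from base 3100 on 3 of 4 arrays, by 0.84 ± 1.42. All 3 lie on chromosome 5 of the rn4 build, from 64008765 to 64008824, from 64031453 to 64031512 and from 64032274 to 64032333.

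**Figure D3:**
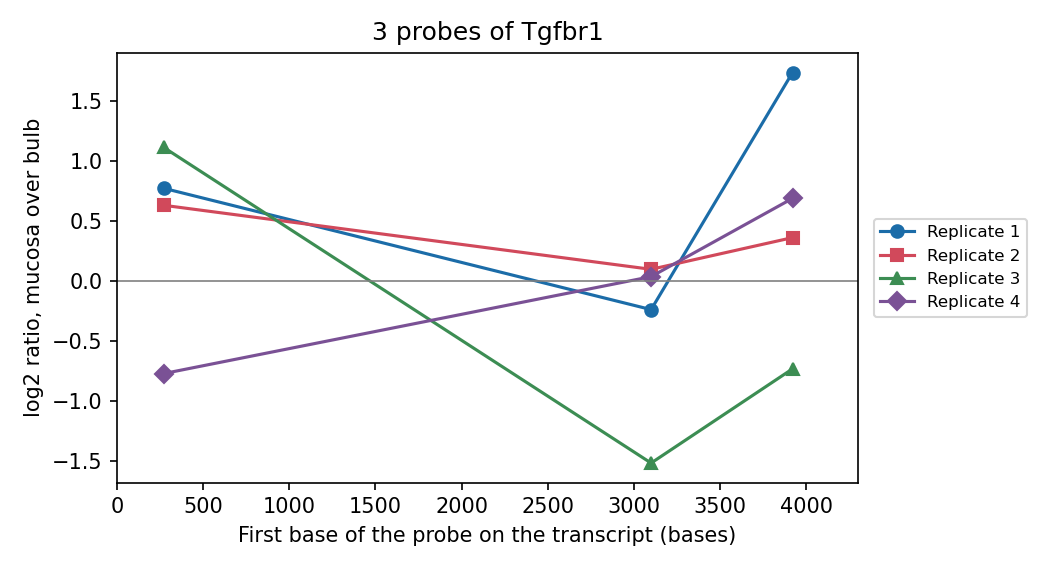
Log2 ratio of mucosa over bulb at the 3 probes of Tgfbr1 by the first base of the probe on the transcript; each line joins the values of 1 array. No probe has the same sign on all 4 arrays, and replicate 3 spans 1.11 at base 270 and -1.52 at base 3100.

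The co-receptors moved in opposite directions. Eng encodes endoglin, a co-receptor for TGF-beta and bone morphogenetic proteins best known from endothelial cells. Its signal was 3354, 3908, 6481 and 3291 in mucosa cells, against 796, 764, 1205 and 1282 in bulb cells. The groups were well apart, and replicate 4 had the smallest difference within a pair. The log2 ratio was 2.05 ± 0.49 (SD, n = 4; limma, adjusted p = 0.00923), with ratios of 2.08, 2.36, 2.43 and 1.36. The call was lost without replicate 1 (ratio 2.05, adjusted p = 0.0554) or without replicate 2 (ratio 1.95, adjusted p = 0.0567), while the number of all gene names called also fell, to 562 and 568 against 2110.

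Because endoglin marks endothelial cells, and is also found on mesenchymal cells, markers of other cell types are given beside it. Of 11 endothelial markers 10 were tested, 1 was higher (Tek, a receptor kinase for angiopoietins, 1.51 ± 0.79, limma, adjusted p = 0.0499) and 1 was lower (Cdh5, the cadherin of endothelial junctions, -1.57 ± 0.67, limma, adjusted p = 0.034; SD, n = 4 each). The second Cdh5 probe, at -0.82 ± 0.63, did not pass (limma, adjusted p = 0.154). Both calls were lost whichever of the 4 replicates was left out, with adjusted p up to 0.15. The summed signal of the 10 tested markers was 3973 to 5727 in mucosa cells, against 3525 to 5696 in bulb cells, so the groups overlapped. Their median log2 ratio was 0.18. A summed signal adds different probes, so the brightest weigh most in it. Pecam1, a defining endothelial marker, was among the names that did not pass the filter on dim probes. Of 9 tested markers of smooth muscle and pericytes 4 were higher and 1 was lower, and their median log2 ratio was only 0.23. Their summed signal was 103661 to 120312 in mucosa cells, against 42945 to 49188 in bulb cells, without overlap. The part of any such cells in the Eng ratio was not tested.

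Tgfbr3 encodes betaglycan, the co-receptor that TGF-beta 2 in particular needs for efficient binding to the kinases. Its signal was 950, 628, 715 and 1225 in mucosa cells, against 1620, 1718, 2690 and 2635 in bulb cells. The groups did not overlap, and each pair was lower in mucosa cells. The log2 ratios of -0.77, -1.45, -1.91 and -1.10 had a mean of -1.31 ± 0.49 (SD, n = 4; limma, adjusted p = 0.0352). The call was lost whichever replicate was left out: adjusted p was 0.0733 without replicate 1, 0.139 without replicate 2, 0.0967 without replicate 3 and 0.0885 without replicate 4, with ratios from -1.49 to -1.11. It was also lost with the processed signals (adjusted p = 0.0696), the deposited ratio (adjusted p = 0.0648), median centring (adjusted p = 0.0541) and a trended robust variance (adjusted p = 0.0962). The probe lies on chromosome 14, from 3239308 to 3239367 of the rn4 build.

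Both inhibitory Smads were higher in mucosa cells. Smad6, which mainly blocks signals of bone morphogenetic proteins, gave signals of 3633, 1850, 1275 and 3173 in mucosa cells, against 891, 520, 432 and 671 in bulb cells. The signals of both tissues were highest in replicate 1 and lowest in replicate 3, and the ratio was steadier than the level. The log2 ratio was 1.92 ± 0.29 (SD, n = 4; limma, adjusted p = 0.00685).

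Smad7, which blocks the type I receptors of TGF-beta and recruits ubiquitin ligases to them, gave signals of 1808, 1371, 1299 and 1335 in mucosa cells, against 345, 371, 370 and 442 in bulb cells. The groups were well separated, with replicate 1 highest in mucosa cells. The log2 ratio was 1.92 ± 0.34 (SD, n = 4; limma, adjusted p = 0.00765), with ratios of 2.39, 1.89, 1.81 and 1.60. Smad6 and Smad7 kept their calls without each replicate in turn, with adjusted p up to 0.0484 and 0.0494, and Tgfb3 did with adjusted p up to 0.0262. The Smad7 probe lies on chromosome 18, from 72323004 to 72323063 of the rn4 build.

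The promoter of Smad7 is shown as an example of a member that passed and whose sequence the RefSeq table for GRCr8 holds. RefSeq's table held promoters of 9 of the 10 members. Smad6 had none there and was not searched. The 250 bases before the start of Smad7, on the plus strand of chr18:71263258-71263507 of GRCr8, are printed with GGCGCC in capitals, a GC-rich palindrome known as an element bound by Smads of the bone morphogenetic protein branch.
Smad7 promoter: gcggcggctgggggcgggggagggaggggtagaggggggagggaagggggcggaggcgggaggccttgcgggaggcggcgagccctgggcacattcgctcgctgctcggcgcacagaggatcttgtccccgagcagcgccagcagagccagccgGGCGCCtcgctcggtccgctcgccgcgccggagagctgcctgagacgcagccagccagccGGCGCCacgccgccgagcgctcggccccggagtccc
The motif occurred at 2 places in it, and in 8.69% of all 33469 promoters of this length. The Smad7 promoter is 78.0% G and C, and 47.4% of the 626 promoters within 2 percentage points of that content held the motif. Among members, Smad7, Tgfbr1 and Tgfbr3 held it. Tgfb3 and Eng, which were also called higher in mucosa cells, did not. The Smad-binding palindrome GTCTAGAC was in 0 of the 9 member promoters and in 0.173% of all, and the shorter CAGAC, searched on both strands, was in 1 (Eng), against 42.9% of all. A match is a description of letters and not a bound site.

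Other genes of the pathway were described as 5 lists with 78 genes, of which 69 were tested. Of these 20 passed, or 29% against 6.62% of all gene names, with 13 higher and 7 lower in mucosa cells. The median log2 ratio of the 69 was 0.22, against 0.01 over all gene names. Of 51 tested cell type markers 37.3% passed. The lists were chosen with earlier results of these data known, so these shares are a description and not a test. Of all gene names tested, 10989 have a symbol, and no share was taken over those alone.

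Of the receptors and Smads that carry the signal, 14 of 16 were tested, 0 were higher and 1 was lower in mucosa cells, and the median log2 ratio was -0.35. The gene that passed was Smad1, a receptor Smad of the bone morphogenetic protein branch, with -2.19 ± 0.25 at its brightest probe and -1.50 ± 0.52 at its second (SD, n = 4; limma, adjusted p = 0.00436 at the brightest). The receptor Smads of the TGF-beta branch did not pass: Smad2 had a log2 ratio of -0.62 ± 0.59 (limma, adjusted p = 0.238) and Smad3 -0.13 ± 1.23 (limma, adjusted p = 0.886). The shared partner Smad4 had -0.34 ± 0.54 (limma, adjusted p = 0.48). Acvrl1, the type I receptor that works with endoglin in endothelial cells, had 1.13 ± 1.04 (SD, n = 4; limma, adjusted p = 0.159), with arrays from -0.29 to 2.15.

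Genes of latency and activation held the largest ratios of the pathway lists. Of 11 tested of 13, 3 were higher and 1 was lower, although the median was -0.32. Thbs1, thrombospondin 1, which can release TGF-beta from its latent complex, had a log2 ratio of 4.65 ± 0.25 (limma, adjusted p = 0.00107). Ltbp2, a latent TGF-beta binding protein that is found on microfibrils and does not itself bind latent TGF-beta, had 3.43 ± 0.46 (limma, adjusted p = 0.00222). Mmp2, a gelatinase that cleaves matrix and can process latent TGF-beta, had 2.56 ± 0.28 and 1.69 ± 0.11 at its 2 probes (limma, adjusted p = 0.00312 at the brightest). Itgb8, an integrin subunit that activates latent TGF-beta on glia, was lower, with -2.56 ± 0.22 (limma, adjusted p = 0.00287; SD, n = 4 throughout). These 4 calls held without each replicate in turn.

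Of the other ligands and secreted or membrane inhibitors 12 of 13 were tested, 4 were higher and 2 lower, with a median log2 ratio of 0.62. The small proteoglycans that bind TGF-beta were split: Bgn, biglycan, had 1.49 ± 0.33 and Fmod, fibromodulin, 1.37 ± 0.35, while Dcn, decorin, had -2.01 ± 0.95. Fst, follistatin, an activin trap, had 1.18 ± 0.33, and its relative Fstl1 had 1.13 ± 0.36. Gdf11, an activin-like ligand, had -1.62 ± 0.46 at its brightest probe, but -0.57 ± 0.41 at its second, which did not pass (SD, n = 4 throughout; limma). All 6 calls were lost without at least 1 replicate: Fst, Fstl1 and Fmod whichever replicate was left out, Dcn without replicate 2, 3 or 4, Bgn without 1, 2 or 4, and Gdf11 without 1 or 2. Their highest adjusted p without a replicate lay between 0.0793 and 0.16.

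Intracellular inhibitors and partners gave 0 calls among 10 tested of 12, with a median log2 ratio of -0.27 and 4 of the 10 ratios above 0. Nedd4l, a ubiquitin ligase that works with Smad7, had the ratio of largest size, -0.86 ± 0.36 (SD, n = 4; limma, adjusted p = 0.082), and its signals did not overlap between mucosa and bulb. Ski and Skil, co-repressors of Smads, had 0.66 ± 0.43 and 0.65 ± 0.50 (SD, n = 4; limma, adjusted p = 0.165 and 0.192), and Smurf2, another ubiquitin ligase partner of Smad7, had 0.48 ± 0.26 (limma, adjusted p = 0.23).

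Known transcriptional targets had the highest median of the pathway lists, 0.95, with 6 of 22 tested (of 24) higher and 3 lower in mucosa cells. Ccn2 (Ctgf on the array), the matricellular connective tissue growth factor, had a log2 ratio of 2.50 ± 0.08 (limma, adjusted p = 0.00266). Cdkn1a, which encodes the cell cycle inhibitor p21, had 2.32 ± 0.49 and 2.09 ± 0.21 at its 2 probes. The chains of type I collagen, Col1a2 and Col1a1, had 2.27 ± 0.45 and 1.82 ± 0.12. Among the targets that fell, the matrix genes Tnc and Tgfbi had -2.28 ± 0.46 and -1.94 ± 0.58 (SD, n = 4 each; limma, adjusted p = 0.00648 and 0.0145), and the second Tgfbi probe, at -1.19 ± 0.61, did not pass.

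The rule for naming took 6 genes of this list. Of the called targets with smaller ratios, Postn, which encodes the matrix protein periostin, had 1.70 ± 0.20 and Klf10, a transcription factor induced early by TGF-beta, had 1.64 ± 0.70 (SD, n = 4 each; limma, adjusted p = 0.0084 and 0.032). The second Klf10 probe, at 0.66 ± 0.43, did not pass. Klf10 lost its call in 5 other ways of processing and whichever replicate was left out, Postn without replicate 1 or 2 and Tgfbi without replicate 1, with highest adjusted p of 0.126, 0.0578 and 0.0698. Ccn2, Cdkn1a, Col1a1, Col1a2 and Tnc kept their calls without each replicate in turn. Targets that did not pass included Id1, a target mainly of bone morphogenetic proteins, at 1.21 ± 0.90 (limma, adjusted p = 0.111), and Fn1, fibronectin, at 1.06 ± 0.50 (limma, adjusted p = 0.0659).

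**Figure D4:**
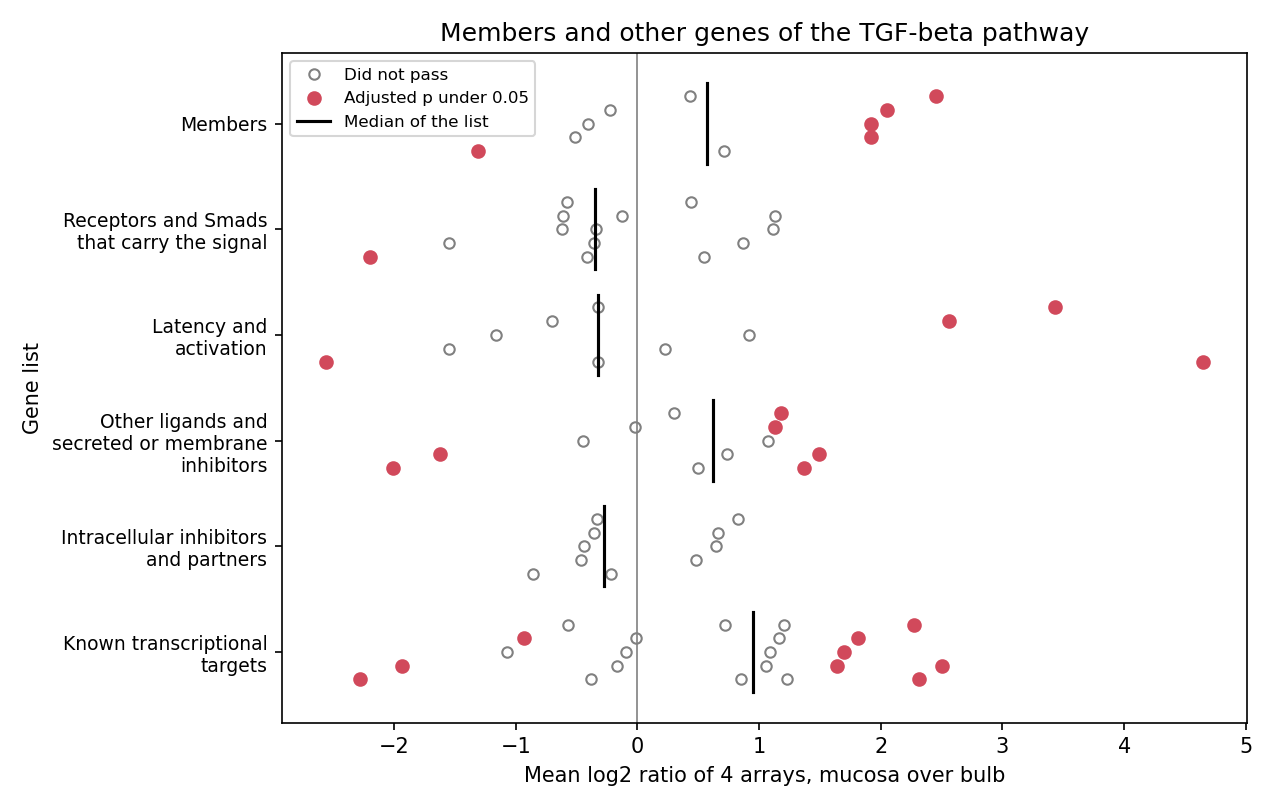
Mean log2 ratio over 4 arrays (horizontal axis) of the members and of the tested genes of 5 pathway lists (vertical axis, spread for legibility). Filled points passed at an adjusted p under 0.05 and bars are list medians; medians run from -0.35 for receptors and Smads to 0.95 for targets.

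Genes with ratios most like those of Tgfb3 and of Tgfbr3, the called members of largest ratio in each direction, were found by Euclidean distance over the 4 arrays among 10989 tested genes with a symbol. For Tgfb3 they were Ctgf at a distance of 0.20, Gas6, a ligand of the Axl family of receptor kinases, at 0.22, and Sema3d, a secreted semaphorin, at 0.31. For Tgfbr3 they were Rhpn1 at 0.17, Nfs1, a cysteine desulfurase of iron-sulphur cluster assembly, at 0.33, and the cytokine gene Il1a at 0.42. All distances are in log2 units and rest on 4 arrays.

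All 13 markers of ensheathing and Schwann glia were well above background on 4 of 4 arrays in both channels. So were all 9 tested markers of smooth muscle and pericytes and all 10 of fibroblasts. Of 10 tested endothelial markers 10 were so in mucosa cells and 9 in bulb cells, and of 9 macrophage markers 8 and 9. Signal above background therefore does not set the glial list apart. Of the 13 glial markers, 1 was higher (Gldn, 1.87 ± 0.58) and 7 were lower in mucosa cells, among them Fabp7 (-2.94 ± 0.49), Cdh19 (-2.44 ± 0.98) and Sox10 (-1.87 ± 0.55; SD, n = 4 each), and the median was -1.27. Their summed signal was 20700 to 25028 in mucosa cells, against 46075 to 58598 in bulb cells. Of these 8 calls only that of Fabp7 held without each replicate in turn. The Gldn signals overlapped between mucosa and bulb, and its call was also lost with the channels unpaired. Among markers of smooth muscle and pericytes, Cnn1, Cspg4 and Tagln had 2.70, 2.65 and 2.46. Of 10 fibroblast markers 2 were higher, Mfap5 (3.99 ± 1.16) and Thy1 (3.90 ± 0.71), and 1 was lower, Fbln1 (-4.15 ± 0.62; SD, n = 4 each). The second Mfap5 probe had a smaller ratio, 2.41 ± 0.62, and the list median was 0.34. The fibroblast summed signal was 63329 to 74105 in mucosa cells, against 52051 to 61772 in bulb cells. The part of these markers in the ratios of the members was not tested.

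Several macrophage markers differed in sign between arrays. Of 9 tested, 0 were higher and 1 was lower (Cd163, -1.58 ± 0.43, with 0.16 ± 0.27 at its second probe; SD, n = 4), and the median log2 ratio was -0.26. The macrophage summed signal was 32994 to 40501 in mucosa cells, against 20651 to 42519 in bulb cells. Cd68, a lysosomal protein of macrophages, had log2 ratios of 1.84, 0.75, -2.34 and -3.48 on replicates 1 to 4. Of the 19 marker calls 12 were lost without at least 1 replicate, with highest adjusted p from 0.0632 to 0.167; Cnn1, Cspg4, Tagln, Fabp7, Fbln1, Mfap5 and Thy1 kept theirs.

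**Figure D5:**
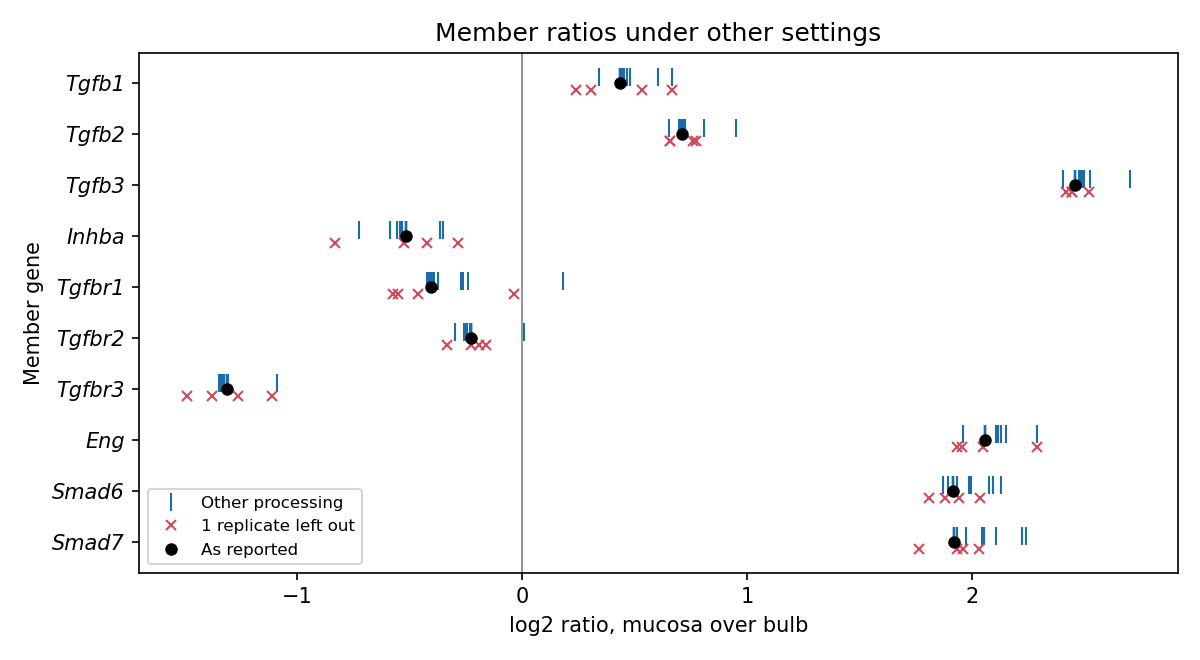
Log2 ratio of each member (vertical axis) as reported, under other processing and with 1 replicate left out. Tgfb3, Eng, Smad6 and Smad7 stay at or above 1.76 and Tgfbr3 at or below -1.09, while Tgfbr1 and Tgfbr2 each reach the other side of 0 in 1 setting.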

How the data were processed

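Per the file headers, Agilent Feature Extraction 10.5.1.1 made the scanner files (9.1 per the submitters' processing notes). Spot and background signals were deposited as linear intensity, and each array's deposited ratio is a log10 value with Cy5 on top. The series' deposited value table equals these log10 ratios (largest difference 0), with column medians of 0, 0, 0 and 0.000422. Per the labels, cDNA was amplified by a global PCR with a procedure that is not disclosed, which can change transcript ratios. All 4 arrays lay on 1 slide with 1 scan time, so no batch could be tested. Median spot signals were 567 to 842 in Cy5 and 342 to 382 in Cy3, and 82.8% to 91.1% of spots were well above background. Precision is limited by the number of arrays.

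Mean signals and median background were corrected by normexp (offset 50) and loess in limma 3.58.1 under R 4.3.3, without control and outlier spots, and repeated spots were averaged. Testing required a ratio on every array and, on 3 arrays or more, a share of 0.5 or more of a probe's spots well above background in either channel. The brightest probe stood for a gene name. Aquantile scaling gave the signals per channel and leaves the log2 ratios as they are. The ratio on an array is the difference within a pair, which the design text calls paired, and lmFit and eBayes tested the mean against 0 (6.36 degrees of freedom after moderation). A sign-flip test of 1 gene over 4 arrays cannot go below 0.125. Fits were tested on simulated data with 100 genes changed by 1 log2 unit and 100 by 2. The fit called 2% of the former and 77% of the latter, with 7 false calls. The changed genes were a far smaller share of the 31868 simulated than the 6.62% called in the data. The adjustment was therefore stricter in the simulation, and these shares do not give the sensitivity in the data. The smallest absolute log2 ratio called in the data was 0.89. A gene that did not pass may still differ by 1 log2 unit or more. Sequences and figures used Python 3.11.15, pandas 2.3.3, numpy 2.4.6 and matplotlib 3.10.9.

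All members were named, of each pathway list up to 6 called genes of largest absolute ratio, up to 4 called markers per list, and 3 nearest genes for the called members of largest ratio. Other genes named (Postn, Klf10, Smad2, Smad3, Smad4, Acvrl1, Ski, Skil, Smurf2, Nedd4l, Id1, Fn1, Pecam1 and Cd68) were chosen after their values were seen, and 1 gene counted in a list is not reported here by name. The members and lists were chosen with earlier results of these data known. Alternatives changed the background correction, signals, normalization, filter, spots, probe choice, weights, variance, pairing, GC trend and replicates.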

Additional observations from a re-analysis of the deposited data

How the results depend on the processing

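The 4 members higher in mucosa cells kept their direction and their call in all 17 other ways of processing, and the members called numbered 4 or 5 in each, against 5 as reported; Tgfbr3 was the call lost in the 4 settings named with its values. Without 1 replicate, 3 to 4 members were called, the calls on pathway and marker lists numbered 18 to 26 against 39, and all gene names called numbered 562 to 1061 against 2110. A trended robust variance gave 898 gene names and 24 list calls, and moved the share of calls that were higher in mucosa cells to 63.3%, against 48.9%. Median centring gave a share of 59.6%, and with it Tgfb2 passed and Tgfbr2 turned to 0.00905 (limma, adjusted p = 0.985). The mean over probes turned Tgfbr1 to 0.18. Each array pairs a mucosa with a bulb sample, so the pairing is that of the hybridisation; with the channels unpaired, without the replicate block, 3483 gene names and the same number of members, 5, were called (1740 names higher and 1743 lower in mucosa cells, against 1031 and 1079). Names called lower numbered 696 with the deposited ratio and 708 with the processed signals, against 1079, and a trended robust variance gave 568 higher and 330 lower. No spot was saturated, so leaving out saturated spots changed no value. Of the 20 pathway calls 6, and of the 19 marker calls 10, were lost in at least 1 other way of processing, and 0 turned sign. The p-values and confidence intervals rest on the spread between the 4 pairs after limma moderated it with the spread of all gene names tested. They therefore do not follow from the printed SD alone. With 4 arrays of 1 dye orientation, 1 slide and amplified cDNA, what dye or amplification add to a ratio cannot be told apart from tissue.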
